A study of Mus musculus with 12 samples.

Results

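Transcripts of ATF4 and of 9 other genes of the integrated stress response were followed in differentiating G1E-ER4 cells. This mouse line of erythroid progenitors lacks GATA1 and carries a form of it that estradiol switches on. The 10 genes, taken by symbol from the 55487 gene rows of each library, were Atf4, Atf5, Asns, Ddit3, Trib3, Chac1, Sesn2, Ppp1r15a, Eif2ak1 and Slc3a2. Every culture was nucleofected with siRNA on 2 occasions 24 h apart, received 100 nM β-estradiol at the later one and was harvested 24 h after that. The 4 groups were a control siRNA alone (siControl, n = 3), the control siRNA with 25 µM DTPA (siControl plus DTPA), an siRNA against ZIP10 alone (siZIP10, n = 3), and both treatments together (siZIP10 plus DTPA, n = 3). DTPA is a metal chelator used here to lower zinc, and ZIP10 is the zinc importer encoded by Slc39a10. Of the 3 libraries deposited for siControl plus DTPA, replicate 3 repeated the values of siZIP10 replicate 1 and was left out, so that this group had n = 2 and 11 of 12 libraries were used. The replicates are biological per the labels, all from 1 cell line.

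The integrated stress response starts with kinases that phosphorylate the translation initiation factor eIF2, which lowers protein synthesis in general while the mRNA of the transcription factor ATF4 is translated more. In erythroid cells the main such kinase is HRI, the product of Eif2ak1, which is held inactive by heme and so ties globin synthesis to heme supply. ATF4 then raises genes for amino acid synthesis and uptake and for tRNA charging, together with other stress regulators, and the product of Ppp1r15a helps to dephosphorylate eIF2 again. Because ATF4 is set largely by translation, its transcript does not report its protein, and neither protein nor phosphorylation was measured here.

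The window from 250 bases before to 50 after the RefSeq start (GRCm38.p6) was searched on both strands for 3 motifs that ATF4 and related factors are known to bind. The C/EBP-ATF response element was written TGATGNAA, the composite C/EBP and ATF site TGANGCAA, and the cyclic AMP response element TGACGTCA. The first and second can match at the same bases. Among 32851 windows, 3.97%, 3.69% and 1.79% held them, in this order. Of the 10 genes (11 windows, since Atf5 has 2), Asns, Trib3, Chac1 and Ppp1r15a held a match. The matched stretches are shown because, within these windows, they separate these 4 from the other 6. Sites outside the windows were not searched, and the share of all windows holding any of the 3 motifs was not computed. Sequences run 5′ to 3′ along the gene's strand, and capitals mark the match.
Asns, 23 to 16 bases before the start, chr6:7693214-7693243, minus strand: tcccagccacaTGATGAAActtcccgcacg
Trib3, after the start, opposite orientation, chr2:152344028-152344057, minus strand: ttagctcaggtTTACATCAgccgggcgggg
Chac1, 250 to 243 bases before the start, chr2:119350992-119351021, plus strand: TGACGCAAtctgactcgcccttgctgcatg
Chac1, 193 to 186 bases before the start, opposite orientation, chr2:119351038-119351067, plus strand: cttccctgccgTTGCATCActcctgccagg
Ppp1r15a, 12 to 5 bases before the start, chr7:45526262-45526291, minus strand: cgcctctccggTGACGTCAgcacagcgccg
The Asns, Trib3 and Chac1 stretches hold the C/EBP-ATF or composite element and the Ppp1r15a stretch the cyclic AMP element. The windows of Atf4, Atf5, Ddit3, Sesn2, Eif2ak1 and Slc3a2 held none of these letters. By GENCODE release 21 all 30 bases of the Asns stretch, 7 of the Ppp1r15a stretch and 5 of the Trib3 stretch lie in annotated exons, and those of Chac1 do not.

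Levels are given in TPM, transcripts of a gene among 1e+06 and therefore per length. Read numbers recovered from them came to 19.62 to 24.68 M (1 M is 1e+06) per library. The targeted Slc39a10 was at 2.31 to 2.78 TPM in siControl, 20.3 to 22 in siControl plus DTPA, 0.507 to 0.837 in siZIP10 and 4.93 to 5.36 in siZIP10 plus DTPA. The siRNA thus lowered it against the matching group, while with both treatments it stayed above the level of siControl. The erythroid markers Hbb-bs, Alas2, Tfrc, Klf1, Slc4a1 and Epor were all detected in every group. With both treatments Slc4a1 fell from 445.0 ± 5.76 to 22.5 ± 0.785 TPM (SD, n = 3 each) and Epor from 150.8 ± 5.85 to 70.9 ± 2.77, Tfrc and Klf1 fell by 0.31 and 0.29 on the log2 scale, and Hbb-bs and Alas2 rose (0.32 and 0.22). Mitochondrial rRNA made up 0.262% to 0.421% of TPM in the other 3 groups and 1.44% to 1.45% in siZIP10 plus DTPA, where ribosomal protein transcripts took 10.7% to 11.1% against 8.03% to 9.47% elsewhere. The 5 megakaryocyte markers reported here together stood at 15 to 16.4 TPM in siControl, 24.3 with DTPA, 15.9 to 17.2 with siZIP10 and 51.9 to 54.3 with both, with Ppbp at 0 throughout. Mast cell and basophil markers summed to 0.832 to 2.49 TPM in the other groups and 20.8 to 22.7 with both treatments, with Ms4a2 and Mcpt8 at 0. The 5 myeloid markers summed to 2.33 to 3.32 TPM in siControl, 3.2 to 3.22 with DTPA, 2.98 to 5.16 with siZIP10 and 5.86 to 6.8 with both, with Mpo and Elane at 0, and the 3 lymphoid markers reported here to 0.296 to 1.61 in the other groups and 2.38 to 3.25 with both. These sums rest on few genes. Only 1 mast cell and basophil, 1 myeloid and 1 lymphoid marker averaged 1 TPM or more. With both treatments they were called higher (3.43, 0.96 and 1.17 on the log2 scale). Of 3 such megakaryocyte markers, 2 were called higher and 1 was below 0 and not called. The part of these marker and rRNA levels in the results below was not tested, and in bulk RNA fewer cells of a type and less RNA per cell cannot be told apart.

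In siControl the 10 transcripts covered a wide range of levels. Ppp1r15a was the highest at 786.2 ± 18 TPM (SD, n = 3), followed by Eif2ak1 at 464.1 ± 5.08, Ddit3 at 407.7 ± 3.59, Asns at 360.8 ± 12.7, Slc3a2 at 283.2 ± 1.96 and Atf5 at 247.7 ± 18.4. Sesn2 at 109.3 ± 5.12 and Atf4 at 106.9 ± 1.08 overlapped between libraries, whereas every other neighbouring pair in this order was separated. Trib3 lay far below them at 13.8 ± 0.308, and Chac1 was listed at 0. Ppp1r15a, Eif2ak1 and Ddit3 thus stood above Asns already without DTPA or the ZIP10 siRNA, and Atf4 itself was among the less abundant of the set per length.

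**Figure D1:**
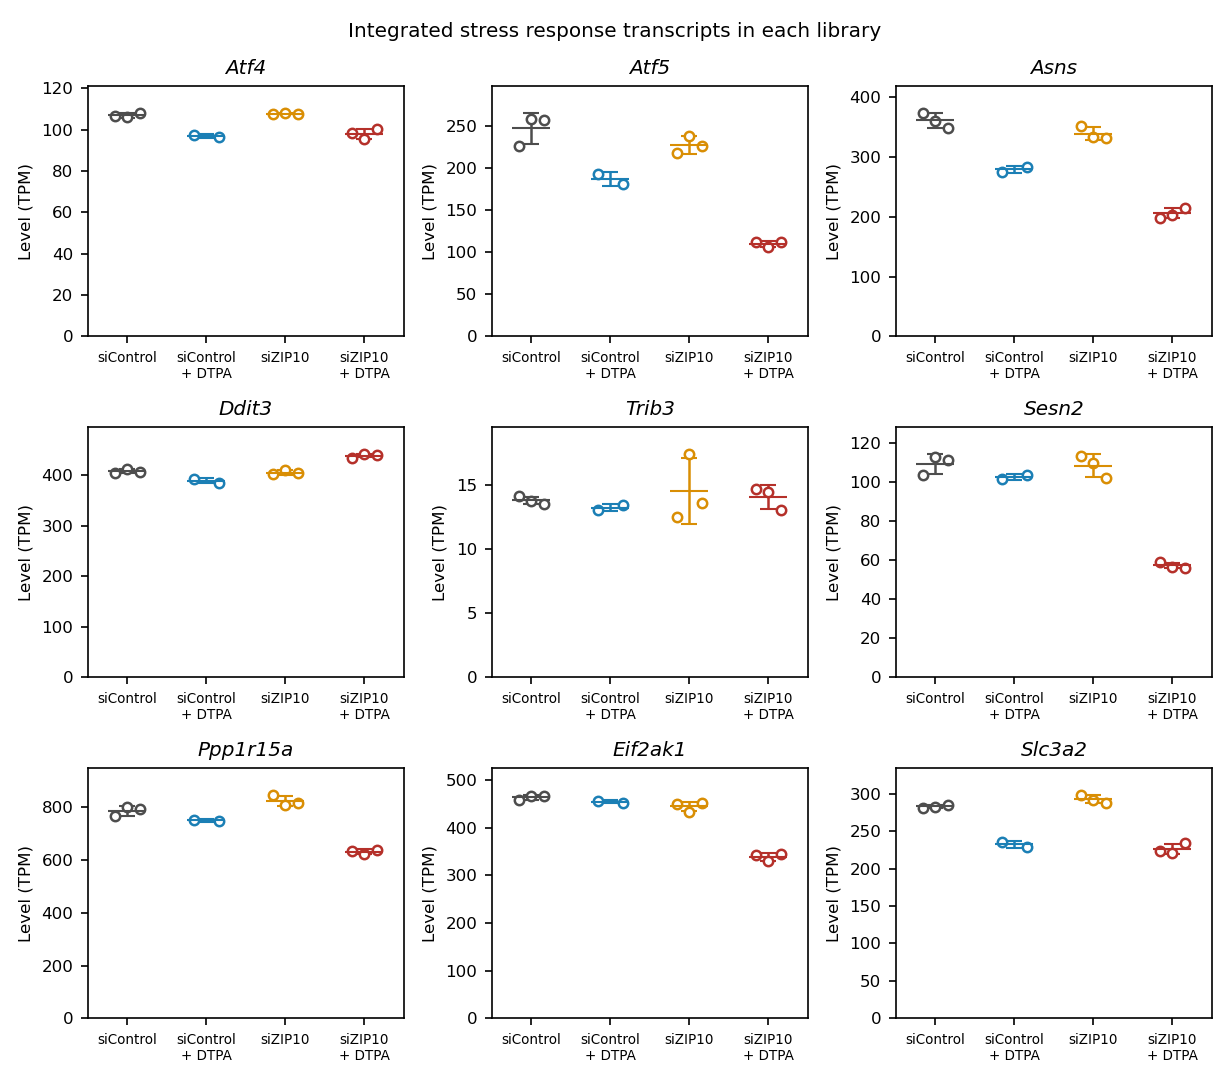
TPM of the 9 genes above 0 in each of the 11 libraries (points), with the mean and SD of each group (lines), each panel on its own linear axis from 0. Atf5, Asns, Sesn2, Ppp1r15a and Eif2ak1 are lowest in the 3 libraries with both treatments, and Ddit3 is highest there.

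Changes below are differences of group means of log2(TPM + 1), a scale that understates changes of low transcripts, and each adjusted p is from limma's moderated test with Benjamini-Hochberg adjustment over 11379 genes. The plot of changes from control shows these values with their intervals for the 9 tested genes.

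**Figure D2:**
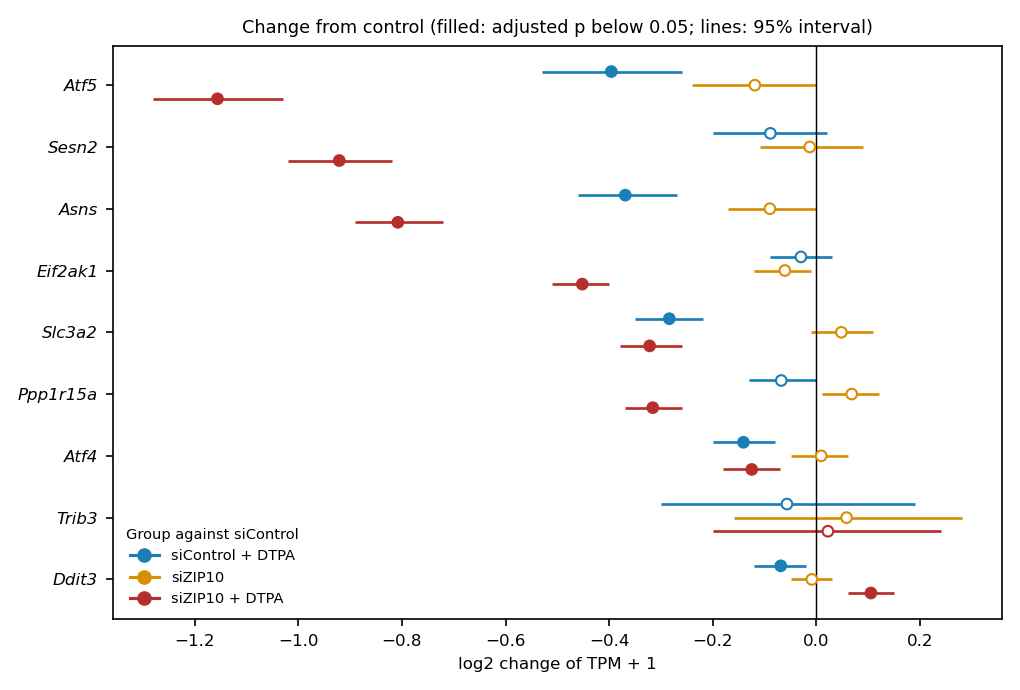
Change of each tested gene from siControl, as log2(TPM + 1), in siControl plus DTPA (blue), siZIP10 (orange) and siZIP10 plus DTPA (red), with lines for the 95% interval and filled points where the adjusted p is below 0.05. No siZIP10 point is filled; with both treatments 7 of 9 genes have filled points below 0, and Ddit3 has one above 0.

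Eif2ak1, the heme-regulated kinase (chr5:143817788-143904251, plus strand, mm10), was lowest where both treatments were combined. Its level was 458.3, 467.6 and 466.5 TPM in siControl, 456.7 and 452.6 in siControl plus DTPA, 449.6, 433.3 and 451.9 in siZIP10, and 342.8, 329.4 and 345.5 in siZIP10 plus DTPA. The 3 libraries with both treatments lay below all 8 others, which spanned 433.3 to 467.6 TPM. The double treatment lowered it to 73.1% of siControl, a log2 change of −0.45 (SE 0.03, limma adjusted p = 4.95e-08). With DTPA alone the change was −0.03 (95% interval −0.09 to 0.03, limma adjusted p = 0.482), and with siZIP10 alone it was −0.06 (−0.12 to −0.01, adjusted p = 0.0939). Neither passed the test, although siZIP10 alone did by voom on recovered reads (−0.06, adjusted p = 0.0434), and neither group's range overlapped that of siControl. Its exons share 487 bases with Aimp2 and 172 with Ankrd61 on the opposite strand, and since the strand setting of the counting is not given, reads of these genes may not be separable from it.

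Atf4 (chr15:80255184-80257541, plus strand), the transcription factor in the centre of the response, changed little. It stood at 106.7, 105.9 and 108.1 TPM in siControl, 97.4 and 96.3 in siControl plus DTPA, 107.7, 107.8 and 107.3 in siZIP10, and 98.4, 95.3 and 100.2 in siZIP10 plus DTPA. The 5 libraries with DTPA were all below the 6 without it, whichever siRNA was used. The log2 change was −0.14 with DTPA alone (SE 0.03, limma adjusted p = 0.00311), 0.01 with siZIP10 alone (adjusted p = 0.822) and −0.12 with both (SE 0.02, adjusted p = 0.00098). Within DTPA, adding the ZIP10 siRNA gave 0.02 (95% interval −0.04 to 0.08, limma adjusted p = 0.653). The difference with both treatments depended on scaling. It was −0.05 by median-of-ratios scaling (adjusted p = 0.0647), −0.04 when mitochondrial and ribosomal protein genes were left out of the TPM total (adjusted p = 0.175), −0.06 by voom on recovered reads (adjusted p = 0.155), and above 0 at 0.06 by quantile normalization (adjusted p = 0.0188). The difference with DTPA alone kept its direction and call under these 4 scalings (−0.09 by quantile normalization). It was −0.09 (limma adjusted p = 0.139) when all 12 libraries were used as labelled. That fit counts a copy of siZIP10 replicate 1 as siControl plus DTPA. This moves the group toward siZIP10 by construction, so the fit is no test of the DTPA change, here or for the genes below.

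Atf5 (chr7:44812256-44816658, minus strand), a related transcription factor induced by the same route, showed the largest fall of the 10 genes. Its level was 226.4, 258.7 and 257.9 TPM in siControl, 193.7 and 181.6 in siControl plus DTPA, 218.1, 238.6 and 226.2 in siZIP10, and 112.5, 106.3 and 112.3 in siZIP10 plus DTPA. DTPA alone put both libraries below siControl, and both treatments put all 3 below every other library, while siZIP10 alone overlapped siControl. The log2 change was −0.40 (SE 0.06, limma adjusted p = 0.000783) with DTPA, −0.12 (adjusted p = 0.13) with siZIP10 and −1.16 (SE 0.05, adjusted p = 1.35e-08) with both, which left 44.6% of the siControl level. Without siControl replicate 1, the lowest control library, the siZIP10 difference was −0.18 and passed (limma adjusted p = 0.0145). By voom on recovered reads it was −0.11 and passed (adjusted p = 0.0494). Of its exons, 82 bases overlap Nup62 and Il4i1 on the opposite strand.

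Asns (chr6:7675169-7693254, minus strand) encodes asparagine synthetase, a standard ATF4 target of the amino acid response. It was at 373.7, 360.7 and 348.2 TPM in siControl, 274.5 and 283.7 in siControl plus DTPA, 352.2, 333.7 and 331.1 in siZIP10, and 198.5, 203.5 and 215.2 in siZIP10 plus DTPA. As for Atf5, the DTPA libraries lay below siControl, those with both treatments lay lowest, and siZIP10 alone overlapped siControl. The log2 change was −0.37 (SE 0.04, limma adjusted p = 0.000131) with DTPA, −0.09 (adjusted p = 0.105) with siZIP10 and −0.81 (SE 0.04, adjusted p = 1.37e-08) with both. The siZIP10 difference passed by voom on recovered reads (−0.09, adjusted p = 0.0424). Slc3a2 (chr19:8706882-8723369, minus strand), the heavy chain shared by several amino acid exchangers, had a different pattern. It stood at 281.7, 282.5 and 285.4 TPM in siControl, 236.1 and 228.8 in siControl plus DTPA, 298.7, 292.3 and 287.4 in siZIP10, and 223.3, 221.6 and 234.5 in siZIP10 plus DTPA. All 5 DTPA libraries were below all 6 others, and the groups with DTPA overlapped each other. DTPA alone gave −0.28 (SE 0.03, limma adjusted p = 7.49e-05; −0.16 and adjusted p = 0.164 with the 12 libraries as labelled), siZIP10 alone 0.05 (adjusted p = 0.217) and both −0.32 (SE 0.03, adjusted p = 1.41e-06; −0.18 by quantile normalization). Within DTPA the ZIP10 siRNA gave −0.04 (95% interval −0.10 to 0.03, limma adjusted p = 0.326).

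Sesn2 (chr4:132492032-132510501, minus strand), whose product restrains the growth kinase complex mTORC1 when leucine is scarce, passed the test only with the combination. Its level was 103.5, 113.0 and 111.5 TPM in siControl, 101.6 and 103.7 in siControl plus DTPA, 113.4, 109.7 and 101.9 in siZIP10, and 59.0, 56.6 and 56.2 in siZIP10 plus DTPA. The 3 groups with 1 or no treatment overlapped between 101.6 and 113.4 TPM, and the libraries with both stood far below. The log2 change was −0.09 (95% interval −0.20 to 0.02, limma adjusted p = 0.221) with DTPA, −0.01 (−0.11 to 0.09, adjusted p = 0.863) with siZIP10 and −0.92 (SE 0.05, adjusted p = 1.74e-08) with both, at 52.4% of siControl. Ppp1r15a (chr7:45522916-45526268, minus strand), which encodes the eIF2 phosphatase subunit GADD34, moved the same way to a smaller extent. It was at 766.0, 800.5 and 792.2 TPM in siControl, 753.4 and 746.8 in siControl plus DTPA, 847.4, 809.4 and 815.9 in siZIP10, and 633.4, 621.2 and 640.0 in siZIP10 plus DTPA. The siZIP10 libraries were all above siControl, both DTPA libraries were below it, and the libraries with both treatments were lowest. The log2 change was −0.07 (limma adjusted p = 0.102), 0.07 (adjusted p = 0.0664) and −0.32 (SE 0.03, adjusted p = 9.27e-07), in the order DTPA, siZIP10 and both. The siZIP10 difference passed under 3 other settings, at 0.08 by median-of-ratios scaling (adjusted p = 0.0377), 0.07 by quantile normalization (adjusted p = 0.0266) and 0.07 by voom (adjusted p = 0.0148). Without siControl replicate 1 the DTPA difference was −0.09 and passed (limma adjusted p = 0.0493).

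Ddit3 (chr10:127290774-127296288, plus strand), which encodes CHOP, a transcription factor linked to cell death under stress, was the 1 gene of the set that rose. It stood at 405.2, 411.8 and 406.1 TPM in siControl, 392.2 and 385.2 in siControl plus DTPA, 401.4, 409.4 and 404.8 in siZIP10, and 434.4, 440.9 and 440.4 in siZIP10 plus DTPA. The libraries with both treatments were above all others, and those with DTPA alone below all others. With both treatments the log2 change was 0.105 (SE 0.02, limma adjusted p = 0.000562), and it was larger under every other scaling tried, between 0.17 (voom) and 0.23 (quantile normalization). The fall with DTPA alone, −0.07 (SE 0.02, limma adjusted p = 0.0344), lost its call in 12 of 23 alternatives, among them all 4 other scalings and the fits without siControl replicate 2 or 3 or without either DTPA replicate (adjusted p up to 0.434, always with the same sign). The symbol occurs in 2 rows, of which 1 is at 0 throughout; the other gave whole reads with the exon length of the full gene, whose exons share 105 bases with that second Ddit3 and 68 with Mars on the opposite strand. Trib3 (chr2:152337422-152344032, minus strand), a pseudokinase that acts as feedback on the response, did not pass in any comparison. Its level was 14.1, 13.7 and 13.5 TPM in siControl, 13.0 and 13.4 in siControl plus DTPA, 12.5, 17.4 and 13.6 in siZIP10, and 14.7, 14.4 and 13.0 in siZIP10 plus DTPA. With 170 to 254 reads per library, its intervals were the widest of the set, −0.20 to 0.24 around a log2 change of 0.02 for both treatments (limma adjusted p = 0.854). Chac1 (chr2:119351229-119354381, plus strand), a glutathione-degrading enzyme and common ATF4 target, was listed at 0 in all 11 libraries. A limit of 3 reads would correspond to 0.22 to 0.296 TPM there, counting error only, and no change can be given.

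Over the set, DTPA alone changed 5 of 9 tested genes (Atf4, Atf5, Asns, Ddit3 and Slc3a2), all lower, against 28.8% of all genes tested called in either direction 18.8% lower and 9.98% higher. The median change of the 9 was −0.09, and that of all tested genes −0.04. The TPM ranges of 8 genes did not overlap those of siControl, all of them lower, against 54.4% of all genes not overlapping and 34.4% lower. The ZIP10 siRNA alone changed 0 of 9 by limma, where 30.6% of all genes were called, 17.5% lower and 13.1% higher. By unadjusted p below 0.05 there were 3 (1 higher, 2 lower), and the share of all genes was not computed for this rule. Voom on recovered reads called 4 (1 higher, 3 lower), against 4037 of the 11150 genes tested that way (1827 higher, 2210 lower). Both medians were −0.01, and the ranges of 3 genes (Ppp1r15a, Eif2ak1 and Slc3a2, of which Eif2ak1 was lower) did not overlap siControl, against 43.7% of all genes and 24.6% lower. Both treatments together changed 8 of 9, with 1 higher and 7 lower, against 66.6% of all genes called, 26.7% higher and 39.9% lower. The median of the 9 was −0.32 and that of all tested genes −0.08, and 8 genes, 7 of them lower, did not overlap siControl, against 70.9% of all genes and 41.8% lower. Atf5 had a lower change than all but 4.2% of tested genes, Sesn2 than all but 6.6% and Asns than all but 8.6%, while Atf4 was near the middle at 45.6%. The direction of calls over all genes moved with scaling. With DTPA alone 34.7% of called genes were higher in the main fit, against 46.8% by median-of-ratios scaling and 51.1% by quantile normalization. By quantile normalization the share also moved from 42.9% to 54.3% for siZIP10 and from 40.1% to 50.2% for both treatments.

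The remaining contrasts compared each treatment on the background of the other, and they share libraries with those above. DTPA within the knockdown changed 8 of 9 genes, with 1 higher and 7 lower, against 60.4% of all genes called, 37.3% lower and 23.1% higher (38.2% of the calls were higher, and 50% when rescaled without mitochondrial and ribosomal protein genes). The TPM ranges of 8 genes, 7 of them lower, did not overlap, against 65.0% of all genes and 39.4% lower. The log2 changes were −1.04 for Atf5, −0.91 for Sesn2, −0.72 for Asns, −0.39 for Eif2ak1, −0.38 for Ppp1r15a, −0.37 for Slc3a2 (−0.22 by quantile normalization), −0.13 for Atf4 and 0.11 for Ddit3 (0.18 to 0.23 under the 4 other scalings), whereas Trib3 gave −0.04 and did not pass. The Atf4 call was lost by quantile normalization (0.01, adjusted p = 0.829), by rescaling (−0.04, adjusted p = 0.193) and by voom (−0.07, adjusted p = 0.0788), and its value fell to −0.07 by median-of-ratios scaling. The knockdown within DTPA changed 6 of 9, with 1 higher and 5 lower, against 53.1% of all genes, 31.7% lower and 21.3% higher. The ranges of the same number did not overlap, 5 of them lower, against 68.6% of all genes and 38.9% lower. Sesn2 gave −0.83, Atf5 −0.76, Asns −0.44, Eif2ak1 −0.42, Ppp1r15a −0.25 and Ddit3 0.17 (0.26 by quantile normalization). The knockdown thus lowered 5 of these transcripts where DTPA was present.

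Whether the effect of DTPA differed with the knockdown was tested directly by the interaction, the DTPA change with siZIP10 minus that with siControl. It passed for 6 of 9 genes, with 1 higher and 5 lower, against 32.4% of all genes called, 20.4% lower and 12.0% higher (37.1% of the calls were higher, 50.4% after rescaling and 47.2% by voom). Sesn2 had the largest value, −0.82 (SE 0.07, limma adjusted p = 8.56e-06), with a double-treatment change of −0.92 against −0.10 for the sum of the separate changes. Atf5 followed at −0.64 (SE 0.08, limma adjusted p = 0.000181), with −1.16 against a sum of −0.52. Eif2ak1 gave −0.36 (SE 0.04, adjusted p = 4.39e-05), Asns −0.35 (SE 0.06, adjusted p = 0.000964) and Ppp1r15a −0.32 (SE 0.04, adjusted p = 0.000114) in the same limma fit. Ddit3 gave 0.18 (SE 0.03, limma adjusted p = 0.0007), with 0.105 against a sum of −0.08. The double-treatment fall of these 5 transcripts was thus larger than the sum of the separate changes, and Ddit3 changed sign. Atf4 at 0.01 (95% interval −0.07 to 0.09, limma adjusted p = 0.914), Trib3 at 0.02 (−0.30 to 0.35, adjusted p = 0.935) and Slc3a2 at −0.09 (−0.18 to 0.00, adjusted p = 0.139) did not pass. By quantile normalization the Atf4 value was 0.09 and passed (limma adjusted p = 0.0434), and the Slc3a2 value was −0.11 and passed when replicate 3 of the double treatment was left out (adjusted p = 0.0485).

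**Figure D3:**
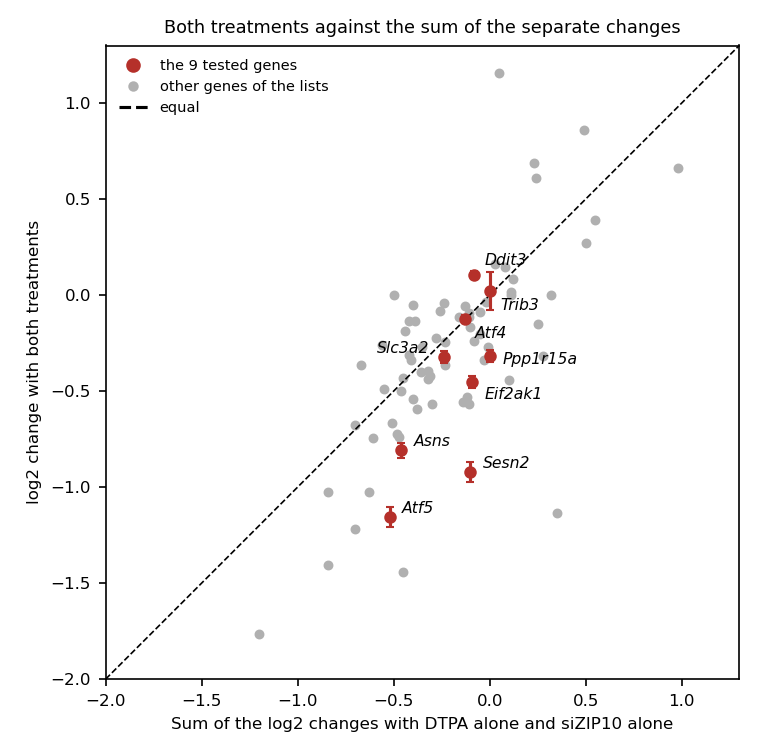
Log2 change with both treatments (vertical axis) against the sum of the changes with DTPA alone and siZIP10 alone (horizontal axis), for the 9 tested genes (red, with SE) and the other tested genes of the pathway lists (grey); the dashed line marks equality. Sesn2, Atf5, Eif2ak1, Asns and Ppp1r15a lie below the line, and Ddit3 lies above it. Slc3a2 lies slightly below it (−0.32 against −0.24), and Atf4 and Trib3 lie on it within the SE shown. That SE belongs to the double-treatment change and leaves out the error of the sum.

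Of the other kinases that phosphorylate eIF2, Eif2ak2 (PKR) was at 26 ± 0.881 TPM in siControl and 20.4 ± 0.742 with both treatments (log2 change −0.34, limma adjusted p = 2.05e-05). Eif2ak4 (GCN2), which senses uncharged tRNA, went from 21.2 ± 1.03 to 14.3 ± 0.673 TPM (−0.53, adjusted p = 3.01e-06). Eif2ak3 (PERK), the kinase of the endoplasmic reticulum, was at 13.0 ± 0.086 and 13.0 ± 0.273 TPM in these groups and, of the 3 comparisons with siControl, passed with siZIP10 alone (0.14, limma adjusted p = 0.0371), a call lost in 9 alternatives, among them each fit without a control library and those without siZIP10 replicate 2 or 3. Per length, Eif2ak1 was thus far more abundant than the other 3 kinases in every group. Counting these 3, a list of 16 other eIF2 signalling genes had 1 higher and 4 lower with DTPA, 2 higher and 6 lower with siZIP10, and 2 higher and 9 lower with both treatments (median −0.21, and −0.06 by quantile normalization). The shares of all tested genes called lower in these comparisons were 18.8%, 17.5% and 39.9%, and those called higher 9.98%, 13.1% and 26.7%. In either direction 5 of 16 were called with DTPA and 11 of 16 with both, near the 28.8% and 66.6% of all tested genes. With siZIP10 8 of 16 were called, against 30.6%. Of the subunits of eIF2B, the exchange factor that phosphorylated eIF2 inhibits, 4 fell with both treatments, with log2 changes of −1.02 for Eif2b3, −0.50 for Eif2b4, −0.40 for Eif2b5 and −0.22 for Eif2b2. By quantile normalization Eif2b5 was −0.24 and Eif2b2 was −0.01 and not called; rescaled, Eif2b2 was −0.14. Eif2b1 was at 48.5 ± 1.70 TPM in siControl and 47.1 ± 3.79 with both. With siZIP10 alone Eif2b3 (−0.40), Eif2b1 (−0.20), Eif2b4 (−0.19) and Eif2b2 (−0.17) were called lower. The Eif2b1 call was lost by quantile normalization (−0.15, limma adjusted p = 0.0877) and without siControl replicate 1 (−0.17, adjusted p = 0.0623). With DTPA alone Eif2b3 (−0.44) and Eif2b4 (−0.26) were called lower, while Eif2b1 (−0.04) and Eif2b2 (−0.11) did not pass. The eIF2 subunit genes Eif2s1 (−0.44) and Eif2s2 (−0.34) fell with both treatments (−0.25 and −0.17 by quantile normalization), and Eif2s3x was at 73.5 ± 0.237 and 68.9 ± 3.13 TPM. Eif2s2 was also lower with DTPA alone (−0.20) and siZIP10 alone (−0.21), where Eif2s1 gave 0.07 and 0.03 and did not pass. Ppp1r15b, the constitutive counterpart of Ppp1r15a, fell by 0.20 with both (−0.13 by median-of-ratios scaling and voom, −0.12 rescaled), except by quantile normalization (−0.04, limma adjusted p = 0.186). Impact, an inhibitor of GCN2, rose with both treatments (0.39, and 0.60 by quantile normalization) and with siZIP10 (0.43), and Dele1, which carries mitochondrial stress to HRI, rose with both (0.16, limma adjusted p = 0.00303, and 0.26 by quantile normalization). Oma1, the protease that cleaves the DELE1 protein, stood at 17.7 ± 1.33 and 15.7 ± 0.326 TPM, and Gcn1, an activator of GCN2, at 28.5 ± 0.718 and 26.3 ± 1.41.

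Genes of amino acid metabolism that ATF4 is known to induce were counted beside Asns and Slc3a2 in 3 lists. In all, 26 such genes were tested, and 21 fell and 0 rose with DTPA alone (median −0.27), 12 fell and 2 rose with siZIP10 (median −0.12), and 21 fell and 1 rose with both treatments (median −0.56). Over all tested genes the shares called lower were 18.8%, 17.5% and 39.9%, and the medians −0.04, −0.01 and −0.08. With the 12 libraries as labelled, where the repeated library counts as siControl plus DTPA, 15 fell with DTPA alone. Among 8 synthesis genes, 6 fell with both treatments, led by the folate and serine pathway genes Shmt2 (−1.77, from 119.2 ± 0.988 to 34.3 ± 1.19 TPM), Mthfd2 (−1.44, from 112.2 ± 2.08 to 40.7 ± 2.73) and Psat1 (−1.03, from 115.4 ± 2.48 to 56.2 ± 2.34). Shmt2 also fell by 0.60 on the log2 scale with DTPA and by the same with siZIP10, and Pck2 by 0.49 with DTPA (−0.30 and limma adjusted p = 0.127 with the 12 libraries as labelled). Psat1 gave −0.41 with DTPA and −0.22 with siZIP10. Mthfd2 gave −0.16 with siZIP10, a call lost in several alternatives. Of 5 transporters, 4 fell with both treatments, including the glutamine carrier Slc1a5 (−1.41), the cationic amino acid carrier Slc7a1 (−0.74) and the glycine carrier Slc6a9 (−0.56). With DTPA alone Slc1a5 gave −0.78, Slc7a1 −0.50 and Slc6a9 −0.22 (−0.14 without replicate 2 of that group). Slc38a2 gave −0.13 with siZIP10, a call lost in several alternatives. Slc7a5, whose protein pairs with that of Slc3a2, rose with siZIP10 (0.26, limma adjusted p = 0.08 with the 12 libraries as labelled) and went from 813.8 ± 26.4 TPM in siControl to 719.7 ± 40.0 with DTPA, 973.1 ± 16.3 with siZIP10 and 899.2 ± 16.7 with both. Of 13 tRNA charging genes, 11 fell with both treatments, led by Aars (−1.22), Eprs (−0.74) and Yars (−0.73), and 11 fell with DTPA, led by Aars (−0.52), Iars (−0.37) and Gars (−0.31, or −0.21 and limma adjusted p = 0.0611 with the 12 libraries as labelled). Their median was −0.56 with both treatments, against −0.08 over all tested genes. With siZIP10 alone 8 of the 13 fell and 1 rose. Those falls were led by Iars (−0.33), Lars (−0.22) and Cars (−0.21, a call lost in several alternatives).

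**Figure D4:**
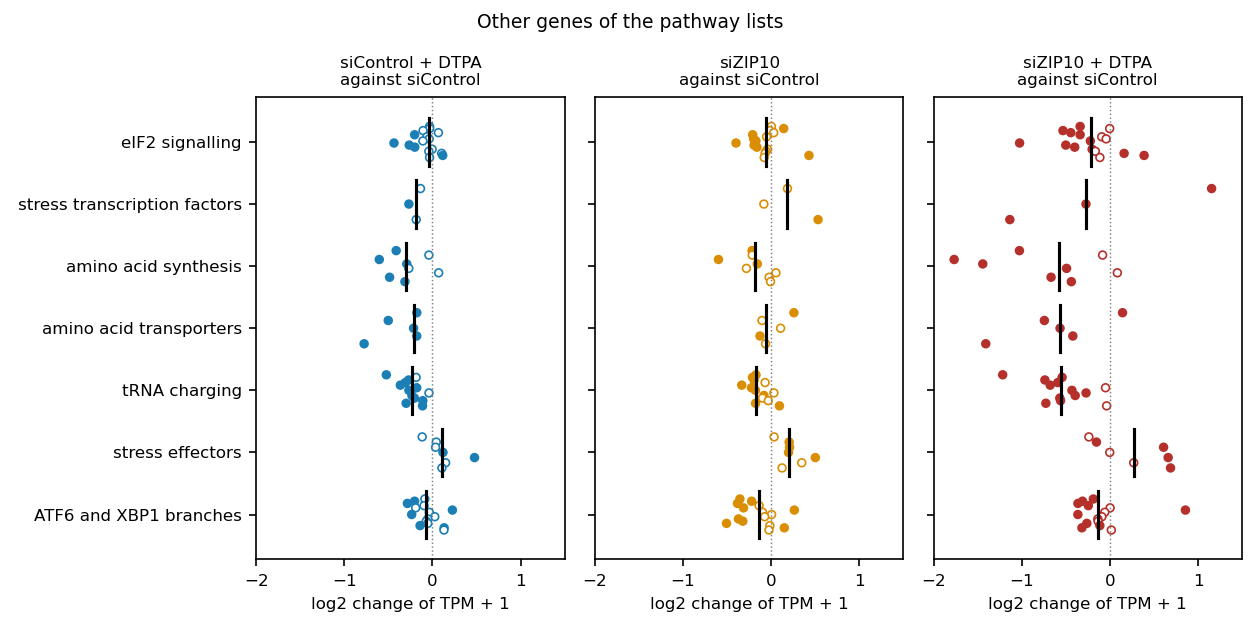
Log2 change from siControl of the other tested genes in 7 pathway lists (points, filled where the adjusted p is below 0.05; bars, list medians), in 1 panel per comparison. The synthesis, transporter and tRNA charging genes lie mostly below 0 with both treatments, with medians of −0.58, −0.56 and −0.56, while the stress effectors have a median of 0.27.

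Genes of the response beyond amino acid supply moved in both directions. Cebpg, a partner of ATF4 in binding DNA, fell with DTPA and with both treatments (−0.27 each, the latter −0.17 by quantile normalization). Cebpb was at 5.12 ± 0.543 TPM in siControl and 12.8 ± 2.84 with both treatments (1.16, limma adjusted p = 5.8e-05). Nupr1, a small stress-induced chromatin protein, rose with siZIP10 (0.53; limma adjusted p = 0.0517 with the 12 libraries as labelled) and fell with both (−1.13). Among 7 tested stress effectors, 3 rose with both treatments, namely Bcl2l11 (0.69), Bbc3 (0.66) and Herpud1 (0.61), and Eif4ebp1 was lower there, at 96.5 ± 4.38 against 107.4 ± 6.62 TPM (−0.15, limma adjusted p = 0.0149), a call not made under the 4 other scalings. Over the list, 5 rose and 0 fell by median-of-ratios scaling and by rescaling, and 4 and 0 by quantile normalization and voom. The list median was 0.27 in the main fit and 0.47 by voom. In the main fit 26.7% of all tested genes (3041) were called higher. Under these 4 scalings 3669, 3552, 3841 and 3642 genes were, in the same order. Bcl2l11 and Bbc3 encode BIM and PUMA, which promote apoptosis, and Bbc3 rose with DTPA (0.48) and siZIP10 (0.50) as well. Gadd45a rose with DTPA (0.12), and Herpud1 (0.21) and Eif4ebp1 (0.20) rose with siZIP10. The Herpud1 call was lost with the 12 libraries as labelled (limma adjusted p = 0.0559). In the ATF6 and XBP1 branches of the unfolded protein response, 1 of 15 genes rose and 8 fell with both treatments, against 26.7% of all tested genes called higher and 39.9% lower. The riser was the chaperone partner Dnajb9 (0.86), and Calr and Xbp1 each gave −0.36 (−0.22 and −0.17 by quantile normalization). By quantile normalization 3 of the 15 rose and 5 fell, where 3841 of all 11379 tested genes were called higher and 3809 lower. With siZIP10 alone 2 rose and 7 fell, against 13.1% of all tested genes called higher and 17.5% lower. The falls were led by Manf (−0.51), Calr (−0.38) and Creld2 (−0.37). With DTPA alone 2 rose and 4 fell, against 9.98% of all tested genes called higher and 18.8% lower. The largest of these changes were Calr (−0.29), Xbp1 (−0.24) and Dnajb9 (0.23). Xbp1 was −0.14 with the 12 libraries as labelled, and Dnajb9 0.21 without replicate 2 of siControl plus DTPA.

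The transcripts whose log2(TPM + 1) followed a member most closely over the 11 libraries were named for Atf4, Asns and Ddit3, as a description, since the libraries share groups and depth. For Atf4 they were Rnf41 (Pearson r = 0.977), Slc3a2 (0.973) and Slc41a1 (0.969), which were all lower with DTPA under either siRNA, as Rnf41 was at 25 and 25.4 TPM with siControl and siZIP10 and at 21.5 and 21.7 TPM in the matching groups with DTPA. For Asns they were Ebp (0.995), Ncbp1 (0.993) and Sun1 (0.993), each lowest with both treatments. For Ddit3 they were Ppp1r18 (0.963), Zfp551 (0.959) and Itgb7 (0.955), whose levels with both treatments (19.9, 4.53 and 14.3 TPM) were above those in siControl (13.5, 2.77 and 7 TPM).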

How the data were processed

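RNA was taken from 12 G1E-ER4 cultures and sequenced from a stranded mRNA kit, per the labels' protocols. The deposited values are TPM, computed by the authors. The tools named, per the submitters' processing notes, were HISAT2 2.1.0, featureCounts, Trimmomatic 0.33, edgeR and FastQC, with the mm10 build; annotation, strand setting and each tool's role were not given in the sources used here. TPM multiplied by GENCODE mouse release 21 exon length gave whole reads (98.9% to 99.1% of values of up to 20 reads, within 0.1 read).

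The 11379 genes averaging 1 TPM or more in the 11 libraries were fitted in limma 3.58.1 (R 4.3.3) on log2(TPM + 1), with a trend, 4 group means and 7 residual degrees of freedom. P-values were two-sided with Benjamini-Hochberg adjustment, and calls were made below 0.05. One library was left out because its values repeat another's. The alternatives covered pseudocounts of 0.1 and 0.5, filters, scalings, voom, the replicate number as a block, all 12 libraries, and leaving out each library. The fit was tested on simulated data with the spread of the real values, where 100 of 11379 genes changed by 0.5 and 100 by 1. With DTPA alone it recovered 58% of log2 changes of 0.5 and 87% of those of 1, with 7 false calls. With both treatments it recovered 58% and 89%, with 14 false calls. The real fit called 28.8% of genes with DTPA alone and 66.6% with both treatments, a far larger share than was changed in the simulation. Because the adjustment depends on that share, these figures do not give the recovery or false calls of the real fit. Changes smaller than 0.5 were not simulated. The 10 genes and all lists were chosen with earlier results of these data known. Of the other genes, all eIF2 signalling genes were named, and from each other list the 3 called genes with the largest change per comparison with siControl; levels of Slc7a5, and Eif4ebp1 with both treatments, were added after values were seen. For Atf4, Asns and Ddit3 the 3 most correlated genes were named. Marker lists covered erythroid cells, megakaryocytes, mast cells and basophils, myeloid and lymphoid cells. One megakaryocyte, 1 lymphoid and 1 erythroid marker are not reported here. Gene positions are from GENCODE release 21, and promoter windows are RefSeq's. Near-identical copies were searched with BLAST 2.17.0; only Aimp2, which overlaps Eif2ak1, was found.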

Additional observations from a re-analysis of the deposited data

Results flagged for a closer look

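For 6 of the 9 tested genes the effect of DTPA with the ZIP10 siRNA differed from its effect with the control siRNA, by limma's interaction term. The differences were −0.82 for Sesn2, −0.64 for Atf5, −0.36 for Eif2ak1, −0.35 for Asns, −0.32 for Ppp1r15a and 0.18 for Ddit3, on the log2(TPM + 1) scale. All 3 libraries with both treatments lay below every other library for the first 5 genes and above every other library for Ddit3. These genes were picked by the interaction in the same libraries, so this position describes them and is no further evidence. The share of all genes separated in this way was not computed. Over all genes tested, 32.4% passed the same test.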

How the results depend on the processing

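Of 1233 member values under 23 alternatives, 1169 kept direction and side of the threshold, 19 lost and 11 gained a call, and 34 changed sign, of which 2 concerned a value called in the main fit (both Atf4, by quantile normalization). With DTPA alone, 2 rather than 5 members were called with 12 libraries as labelled. In that fit a copy of siZIP10 replicate 1 counts as siControl plus DTPA, so fewer calls there do not test the DTPA change. With siZIP10 alone, 1 was called by median-of-ratios scaling, 1 by quantile normalization and 4 by voom, against 0. Over all genes these settings called 3747, 3704 and 4037, against 3480 in the main fit. Leaving out 1 library gave 4 to 6 calls with DTPA, 0 to 1 with siZIP10 (1 without siControl replicate 1), 8 with both treatments, 8 for DTPA within the knockdown, 6 for the knockdown within DTPA and 6 to 7 for the interaction. For other named genes, 51 of 1656 values lost their call and none changed sign. These were taken only from comparisons with siControl where the gene was called in the main fit. No call could therefore be gained, and their count of sign changes is not comparable with that of the members.

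Deviations of same-numbered libraries of different groups had r from −0.0602 to 0.0607 over 15 pairs, and those of differently numbered libraries −0.0856 to 0.0659. Of 11 libraries, 7 correlated best with their own number, and the count expected without pairing was not computed. The 2 libraries of siControl plus DTPA mirror each other in these values, so the pairs are not independent. With the replicate block 4 members were called with DTPA, 0 with siZIP10, 8 with both treatments, 8, 6 and 6 in the last 3 contrasts.

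Sign changes by scaling were as follows. Median-of-ratios scaling gave 0.01 for Eif2ak1 with DTPA, 0.0028 for Ddit3 with siZIP10, 0.02 for Trib3 under DTPA within the knockdown and 0.00011 for Slc3a2 under the knockdown within DTPA. Quantile normalization gave 0.01 for Eif2ak1 with DTPA, 0.06 for Atf4 with both treatments and 0.01 under DTPA within the knockdown, 0.04 for Sesn2 with siZIP10, −0.01 for the Trib3 interaction, and for Slc3a2 0.07 under the knockdown within DTPA and 0.03 for the interaction. Rescaling without mitochondrial and ribosomal protein genes gave −0.00066 for Atf4 with siZIP10, 0.05 for Trib3 under DTPA within the knockdown and 0.02 for Slc3a2 under the knockdown within DTPA, and voom gave 0.03 and 0.01 for these last 2. For Atf4, the 12 libraries as labelled gave −0.03 under the knockdown within DTPA and −0.04 for the interaction, and the block gave −0.0005 for the interaction. Leaving out 1 library spanned −0.01 to 0.03 for the Atf4 interaction, −0.00015 to 0.04 for Atf4 under the knockdown within DTPA, −0.05 to 0.03 for Sesn2 with siZIP10, and for Trib3 −0.13 to 0.09 under DTPA within the knockdown, −0.01 to 0.07 with both treatments, −0.07 to 0.15 for the interaction and −0.07 to 0.15 with siZIP10. The cause was not tested. Depth was lowest among tested members for Trib3, at 170 to 254 reads per library, and contrasts with siControl plus DTPA rest on n = 2 there.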
